A study of Mus musculus with 2 samples.

Results

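The genes described here are 41 of the cytosolic protein synthesis machinery, made up of 20 aminoacyl-tRNA synthetases, 14 initiation factors, 5 elongation factors and 2 inhibitors of translation. They were chosen by name, and their probes were found through the RefSeq accession that the array design gives for each probe. Of 13001 genes measured on both arrays, all 41 were among them, with 70 of their 71 probes well above background on both. Nrdc encodes nardilysin, a metalloendopeptidase, and the study asked what it does in the exocrine pancreas. A WT pancreas sample and a sample with floxed Nrdc alleles and Ptf1a-Cre (Nrdc-cKO) gave 1 Agilent 1-colour array each. Both samples were male, C57BL/6 and aged 5 weeks. The sources used here do not give the Cre and floxed alleles of the WT sample, or say whether RNA of several mice was pooled. Ptf1a is active in progenitors of the whole pancreatic epithelium and later in acinar cells, so Cre can act beyond the acinar lineage, and cells without that history keep Nrdc.

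Aminoacyl-tRNA synthetases join each amino acid to its transfer RNA. Initiation factors bring the ribosome and the initiator transfer RNA to the start of a message, and elongation factors carry the ribosome along it. Acinar cells of the exocrine pancreas make digestive enzymes in bulk and are known for a very high rate of protein synthesis. When amino acids run short or proteins misfold in the endoplasmic reticulum, phosphorylation of eIF2 slows initiation while the message of the transcription factor ATF4 is translated more, and ATF4 is known to induce many cytosolic synthetase genes.

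Levels below are log2 processed signals relative to the 75th percentile of each array, averaged over the probes of a gene, and a difference is the Nrdc-cKO level minus the WT level. A difference of 1.0 either way is 2-fold. With 1 array per group there is no error across animals and no test, and every difference describes these arrays. For 291 probes printed in repeat spots, the difference had a median SD over spots of 0.032. Different probes of a gene disagreed more, with a median SD of 0.18. The median of all genes was -0.18, so a value is best read against that. Nrdc itself stood at 1.93 on WT and -1.28 on Nrdc-cKO, a difference of -3.21 from 1 probe. The labels do not say which part of the gene is deleted, so this checks the genotype only if the probe lies in that part. On the WT array 46.3% of non-control spots were well above background, against 60.3% on the Nrdc-cKO array. Arrays are scaled to each other by assumption, and with scaling to the E1A spike-in controls every gene stands 1.90 higher on the log2 scale, which puts all members except Wars and Mars above 0. The scaling in the authors' deposited table sets every gene 0.50 higher. Directions are therefore best read relative to the bulk of genes. Fold counts are taken from 0 in the main scaling, not from the median of all genes.

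All 20 cytosolic synthetases had a difference below the median of all genes, under which 50% of genes lie by definition, and all 20 were below 0, as were 58.7% of all genes. Their median was -0.78, which is -0.60 relative to all genes. At least 2-fold lower were 7 of 20 synthetases (35.0%), against 17.3% of all genes, and 0 were at least 2-fold higher, against 12.8%. With a threshold of 1.5-fold, 15 synthetases were lower, against a background of 31.3%, and 0 were higher, against 20.1%. Of the 41 members 19 had more than 1 probe, and in 18 of these all probes had the same sign, the exception being the initiation factor Eif4b. The smallest synthetase differences were those of Lars (-0.35) and Eprs (-0.35), which charge leucine and, in 1 fused protein, glutamate and proline. In bulk tissue, fewer cells of a type and less RNA per cell cannot be told apart.

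Wars, which charges tryptophan, stood furthest from the other synthetases. Its 2 probes read 8.04 on WT and 5.83 on Nrdc-cKO for the brighter, and 3.72 and 1.21 for the dimmer. The mean difference was -2.36 (5.12-fold lower), with the probes at -2.21 and -2.50. Only 1.81% of all genes had a lower value. Mars, the methionine synthetase, was next, with 3.23 on WT and 1.29 on Nrdc-cKO, a difference of -1.93 (3.82-fold lower) from 1 probe. Vars, which charges valine, read 2.72 and 1.33, a difference of -1.39. Each of these lay further from the synthetase median than the spread between probes of a gene. Wars and Mars were also the only members below 0 in every scaling tried, at -0.46 and -0.04 with spike-in scaling.

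Around the 2-fold line the synthetases formed a continuous series with no gap. Kars, the lysine synthetase, read 4.94 on WT and 3.77 on Nrdc-cKO (-1.17). Hars, for histidine, read 1.30 and 0.20 (-1.10). Gars, for glycine, read 7.14 and 6.13 (-1.01). Dars, for aspartate, read 0.47 and -0.53, just past the line. Yars, for tyrosine, fell just short with 0.79 and -0.17 (-0.95). The counts past 2-fold thus depend on members that sit at the line. The other synthetases, those for cysteine, serine, alanine, phenylalanine, glutamine, asparagine, threonine, arginine and isoleucine, lay between -0.82 (Cars) and -0.51 (Iars). Farsa and Farsb, the subunits of the phenylalanine enzyme, were close to each other at -0.67 and -0.79.

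**Figure D1:**
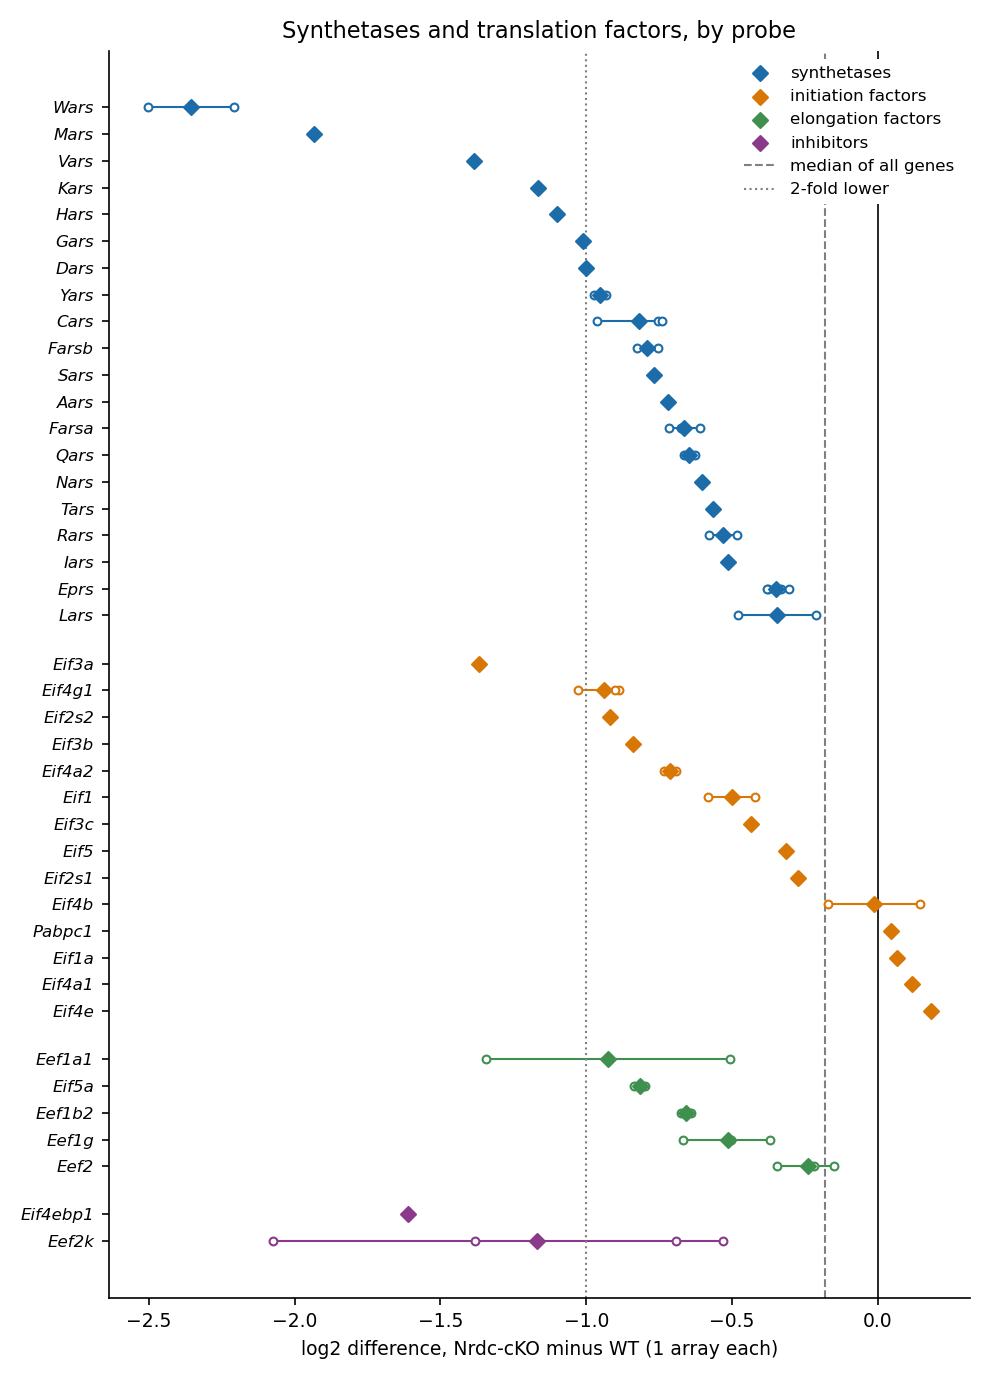
Log2 difference (Nrdc-cKO minus WT, horizontal axis) of each of the 41 members, grouped by role. Open circles are probes, diamonds are gene means, and horizontal lines span the probes. The dashed line is the median of all genes (-0.18) and the dotted line is 2-fold lower. All synthetases lie left of the dashed line, from Wars at -2.36 to Lars at -0.35, while 4 initiation factors lie right of 0.

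RefSeq promoter windows of GRCm38.p6, 250 bases before to 50 after the start, were at hand for 30 of 41 members, 13 of them synthetases. These were searched on both strands for TGATGNAA, the core of the composite element that ATF4 binds with C/EBP partners, since this factor is known to act on synthetase genes. The motif was in the window of 5 of 13 synthetases (38.5%), in 0 of 12 initiation factors, 0 of 4 elongation factors and 0 of 14 mitochondrial synthetases, and in 4.51% of 27025 genes in the table. Of the inhibitors only Eef2k had windows, and 1 of its 3 held it. The amino acid response genes described further on held it in 7 of 21 (33.3%). Stretches that end 20 bases past the start are shown for these 5 genes, which carry the motif within a group whose values were all below 0. Asns, asparagine synthetase, is added as a gene of the same response that holds the element. The motif is in capitals, in either orientation.
Aars, chr8:111033712-111033861, plus strand: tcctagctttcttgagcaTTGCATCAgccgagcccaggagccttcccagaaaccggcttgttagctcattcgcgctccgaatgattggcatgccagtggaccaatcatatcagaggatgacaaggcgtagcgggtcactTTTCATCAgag
Gars, chr6:55037871-55038020, plus strand: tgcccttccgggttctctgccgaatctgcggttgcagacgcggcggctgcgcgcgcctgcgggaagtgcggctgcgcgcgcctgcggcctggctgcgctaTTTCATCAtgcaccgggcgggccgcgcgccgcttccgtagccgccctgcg
Iars, chr13:49682000-49682149, plus strand: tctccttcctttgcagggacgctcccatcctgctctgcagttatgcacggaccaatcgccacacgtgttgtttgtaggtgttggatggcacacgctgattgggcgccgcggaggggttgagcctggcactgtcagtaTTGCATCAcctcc
Tars, chr15:11399639-11399788, minus strand: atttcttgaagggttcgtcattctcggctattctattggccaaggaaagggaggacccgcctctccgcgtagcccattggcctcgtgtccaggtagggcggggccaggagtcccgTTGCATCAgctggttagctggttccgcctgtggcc
Yars, chr4:129189773-129189922, plus strand: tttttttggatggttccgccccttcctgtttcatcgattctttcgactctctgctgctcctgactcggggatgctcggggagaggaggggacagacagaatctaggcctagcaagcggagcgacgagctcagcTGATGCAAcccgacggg
Asns, chr6:7693190-7693339, minus strand: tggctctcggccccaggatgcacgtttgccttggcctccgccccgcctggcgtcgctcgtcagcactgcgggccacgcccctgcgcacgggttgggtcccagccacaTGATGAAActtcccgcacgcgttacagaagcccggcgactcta
In Aars the motif occurred at -112 to -105 and again at 10 to 17, counted from 1 at the start with no position 0. It lay at -30 to -23 in Gars, -15 to -8 in Tars, 8 to 15 in Iars and 4 to 11 in Yars. In Asns it lay at -23 to -16. Among the 13 synthetases with a window, the expression values did not sort by the motif. Wars, Vars, Hars, Cars, Lars, Nars and Rars had no window and could not be sorted, so the lowest synthetase is not covered. The 5 synthetases with it had a median difference of -0.72 (from -1.01 to -0.51), and the 8 with a window that lacks it had a median of -0.78 (from -1.93 to -0.35). A match is a description of the letters and not of a bound site. The E-box CACGTG, which overlapped none of these motifs, was in 4 of 13 synthetases, 4 of 12 initiation factors and 2 of 4 elongation factors with a window, against 8.09% of all genes in the table.

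Part of the synthetases work as a large complex held together by scaffold proteins. Its 8 catalytic members (Eprs, Iars, Lars, Qars, Mars, Kars, Rars and Dars) had a median of -0.59 and the 12 others a median of -0.80, with 3 of 8 (37.5%) and 4 of 12 (33.3%) at least 2-fold lower, against 17.3% of all genes. Values within the complex ran from -1.93 (Mars) to -0.35 (Lars), so enzymes of the same assembly differed by more than the medians did. The scaffolds Aimp1 (-0.38), Aimp2 (-0.70) and Eef1e1 (-0.56) lay inside that range, and 0 of 3 passed 2-fold.

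Mitochondria translate their own messages, mostly with a separate set of synthetases encoded in the nucleus. Of 16 on the list, 15 were measured on both arrays, and Mars2 was not well above background on either. Their median was -0.44, with 0 of 15 at least 2-fold lower, against 17.3% of all genes, and 0 higher, against 12.8%. The lowest were Fars2 (2.62 on WT and 1.63 on Nrdc-cKO, with probe differences of -1.42 and -0.57), Nars2 (-0.89) and Iars2 (-0.67). For 15 amino acids both a cytosolic and a mitochondrial gene could be read, and the cytosolic one was the lower in 9. The median of the difference within an amino acid was -0.25. It was largest for tryptophan, where Wars stood at -2.36 and Wars2 at 0.43, followed by valine, where Vars stood at -1.39 and Vars2 at 0.29. Wars2 was dim, at -2.14 on WT and -1.71 on Nrdc-cKO, with 1 of its 2 probes detected on both arrays. Vars2 read -0.78 and -0.49 from 1 probe, so both gaps rest on single probes of low signal. These mitochondrial genes were chosen after their values were seen. For phenylalanine and asparagine the order was the reverse, with Fars2 and Nars2 below Farsa (-0.67) and Nars (-0.60). Eprs serves both glutamate and proline and therefore enters 2 of the 15 pairs. With bright probes only, 7 mitochondrial synthetases were measured, with a median of -0.66 against -0.77 for the cytosolic ones.

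**Figure D2:**
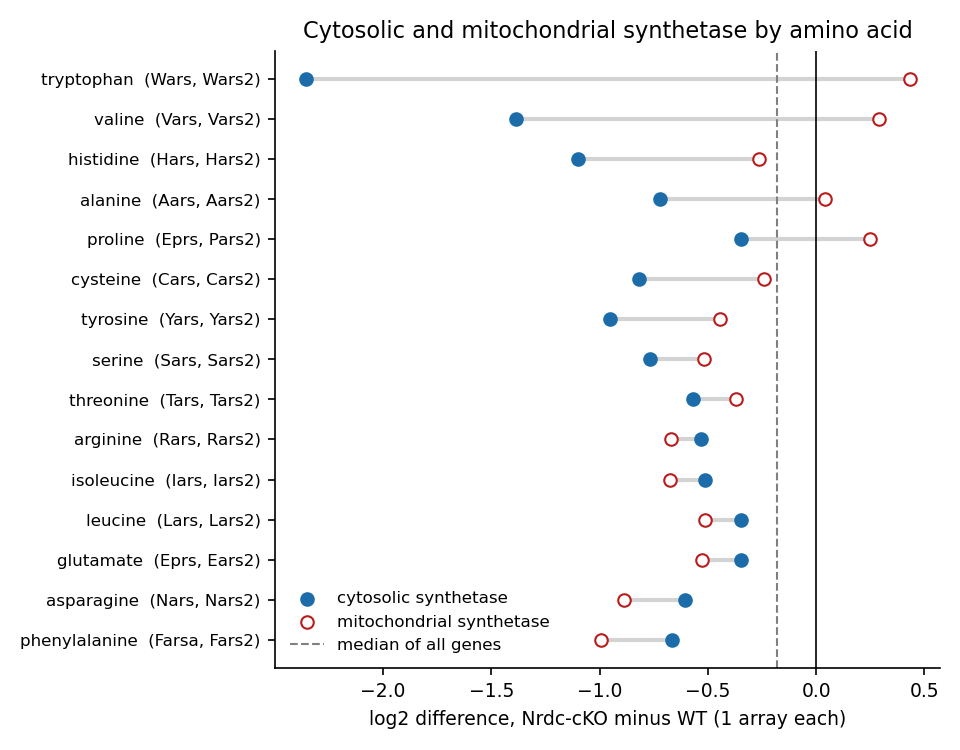
Log2 difference (Nrdc-cKO minus WT, horizontal axis) of the cytosolic (filled) and mitochondrial (open) synthetase for each of 15 amino acids, ordered by the gap between them. The cytosolic gene is lower for 9 amino acids, with the widest gap for tryptophan (-2.36 against 0.43), where Wars2 was read by 1 dim probe.

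The initiation factors were spread on either side of the median of all genes. Of 14, 9 were below it and 10 below 0, and their median was -0.37. At least 2-fold lower was 1 of 14 (7.14%, against 17.3% of all genes), and 0 were at least 2-fold higher, against 12.8%. The 1 lower was Eif3a, a core subunit of the eIF3 scaffold, which read 6.13 on WT and 4.76 on Nrdc-cKO, a difference of -1.37 from 1 probe. The subunits Eif3b and Eif3c stood at -0.84 and -0.43. The other eIF3 subunits, a list of 10, had a median of -0.66. At least 2-fold lower was 1 of these, Eif3j1 at -1.08, against 17.3% of all genes. Eif3g (-0.87) and Eif3i (-0.83) came next, while Eif3e, chosen after its value was seen, stood at 0.07.

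The eIF4F complex binds the cap of a message, and its parts differed from one another. The cap-binding protein Eif4e read 1.65 on WT and 1.83 on Nrdc-cKO (0.18). The scaffold Eif4g1 read 2.62 and 1.68 (-0.94), with 3 probes between -1.03 and -0.89. The helicase Eif4a1 read 5.51 and 5.62 (0.12), and its paralogue Eif4a2 read 3.64 and 2.92, a difference of -0.71 with probes at -0.73 and -0.69. The gap between these helicases, -0.83, was larger than the spread between probes of a gene, though paralogue probes can take up each other's transcripts. Eif4b, which helps the helicase, stood at -0.01 with probes on either side of 0. The poly(A)-binding protein Pabpc1, which joins the tail of a message to eIF4G, read 5.14 on WT and 5.18 on Nrdc-cKO, a difference of 0.05 ± 0.053 (SD over 10 repeat spots of 1 probe). Its relative Pabpc4 was 2.46-fold lower at -1.30, so the gap within this family was -1.34.

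Other members deliver the initiator transfer RNA or help to choose the start codon. The eIF2 subunit Eif2s2 read 5.81 on WT and 4.89 on Nrdc-cKO (-0.92), whereas Eif2s1, which carries the regulatory phosphorylation site, read 3.06 and 2.78 (-0.27). Eif1 stood at -0.50, Eif5 at -0.31 and Eif1a at 0.07. A further list of eIF2B subunits, eIF2 kinases, phosphatase subunits and the eIF2 subunit Eif2s3x had a median of -0.85. At least 2-fold lower was 1 of 12, under the 17.3% of all genes, and 0 were higher. That count depends on genes at the line. It was 2 with bright probes only and 3 with the brightest probe per gene, where 16.3% and 17.7% of all genes were lower. At 1.5-fold 7 of 12 were lower, against 31.3% of all genes. The lowest were the eIF2B subunits Eif2b1 (-1.20), Eif2b2 (-0.99) and Eif2b4 (-0.98, with probes at -1.25 and -0.71). The remaining initiation factors, a list of 21 with 20 measured on both arrays, had a median of -0.31. At least 2-fold lower were 2 of 20, Pabpc4 and the ribosome-joining factor Eif5b (-1.23), against 17.3% of all genes. Next in size was Eif1ax (-0.74). Eif4e3 was detected on the Nrdc-cKO array only, at least 1.36-fold higher.

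The 5 elongation factors were all below the median of all genes, under which 50% of genes lie, with a median of -0.66. Of these 5, 0 passed 2-fold, where 17.3% of all genes were lower and 12.8% higher. Eef1a1, which brings charged transfer RNA to the ribosome, was read by a probe with 10 repeat spots at 8.66 on WT and 8.16 on Nrdc-cKO, a difference of -0.51 ± 0.028 (SD over spots). Its other probe was at -1.34, so the gene mean of -0.92 rests on probes that disagree by more than the usual spread. The exchange factor subunits Eef1b2 and Eef1g stood at -0.66 and -0.51. Eef2, which moves the ribosome by a codon, was read by its repeated probe at 8.46 and 8.11, a difference of -0.35 ± 0.038 (SD over spots), with a gene mean of -0.24. Eif5a, the hypusine-bearing factor that helps at stalling sequences, read 6.71 on WT and 5.89 on Nrdc-cKO (-0.82). The other elongation and release factors, a list of 8 with 7 measured, had a median of -0.55 and 0 past 2-fold, led by the release factor Etf1 (-0.97), the exchange factor subunit Eef1d (-0.80) and the release factor Gspt1 (-0.63). Eef1a2, the form known from muscle and nerve, was not well above background on either array.

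Both inhibitors were at least 2-fold lower, as were 17.3% of all genes. Eif4ebp1, which binds eIF4E and blocks its meeting with eIF4G, read 6.15 on WT and 4.54 on Nrdc-cKO, a difference of -1.61 (3.06-fold lower) from 1 probe. Eef2k, the kinase that inactivates eEF2, read 0.30 and -0.87, a difference of -1.17. Its 4 probes ran from -2.07 to -0.53, the widest range of any member, so its place past 2-fold depends on which probes are used. Relatives of Eif4ebp1 chosen after their values were seen, Eif4ebp2 and Eif4ebp3, stood at -0.70 and -0.32.

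**Figure D3:**
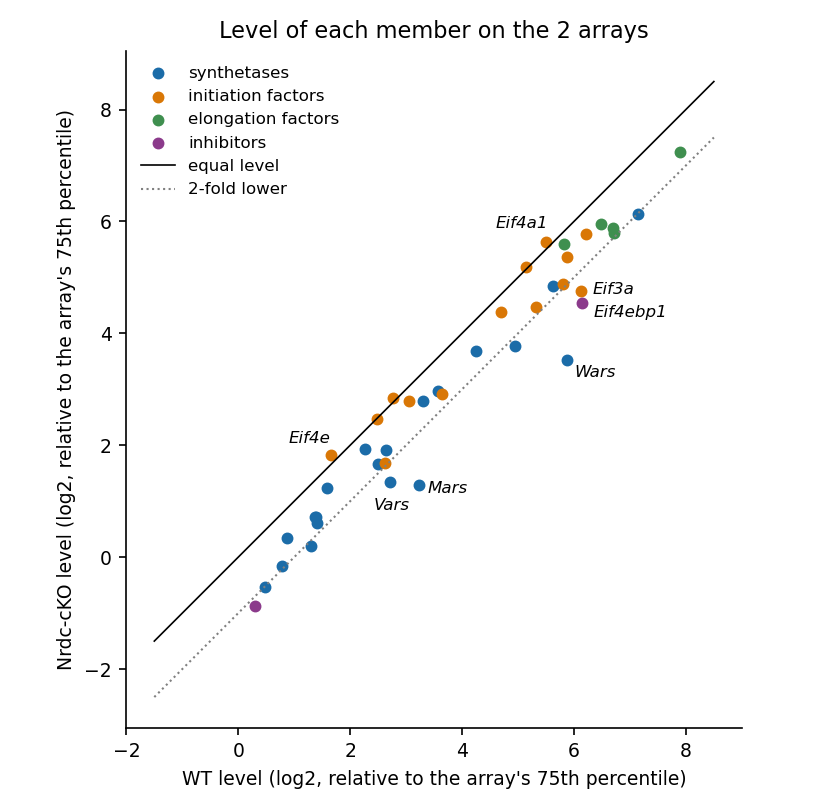
Level of each member on the WT array (horizontal axis) and on the Nrdc-cKO array (vertical axis), as log2 signal relative to the 75th percentile of each array. The solid line marks equal levels and the dotted line 2-fold lower. Distance from the lines is what can be compared, not levels of different genes. Wars (5.88 and 3.52) and Mars (3.23 and 1.29) lie furthest below the dotted line, and Eif4a1 and Eif4e lie just above the solid line.

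The synthetases and initiation factors were then set against each other. The synthetase median minus that of the initiation factors was -0.41 on the log2 scale. The 75th percentile over detected probes, spike-in scaling and the authors' table add a constant to every gene and cannot alter this gap, and leaving dim probes in used the same probes for both groups. In the other 5 alternatives, quantile scaling, loess, normexp background correction, bright probes only and the brightest probe per gene, the gap ran from -0.62 to -0.40. Relative to all genes the synthetase median ran from -0.63 to -0.32 in these and with dim probes left in, and at least 18 of the measured synthetases lay below the median of all genes in each. The initiation and elongation factors did not hold their place in this way. Their medians relative to all genes were 0.12 and 0.08 with quantile scaling, 0.02 and 0.03 with loess, 0.19 and -0.06 after normexp and 0.08 and -0.20 with dim probes left in, where the median of all genes is itself lower, against -0.19 and -0.48 in the main setting. Of these 19 factors, 14 were below the median of all genes in the main setting. The gap refers to the member initiation factors only. In the main setting the list with eIF2B subunits and eIF2 kinases had a median of -0.85, below the -0.78 of the synthetases. The other eIF3 subunits had a median of -0.66 and the remaining initiation factors one of -0.31.

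**Figure D4:**
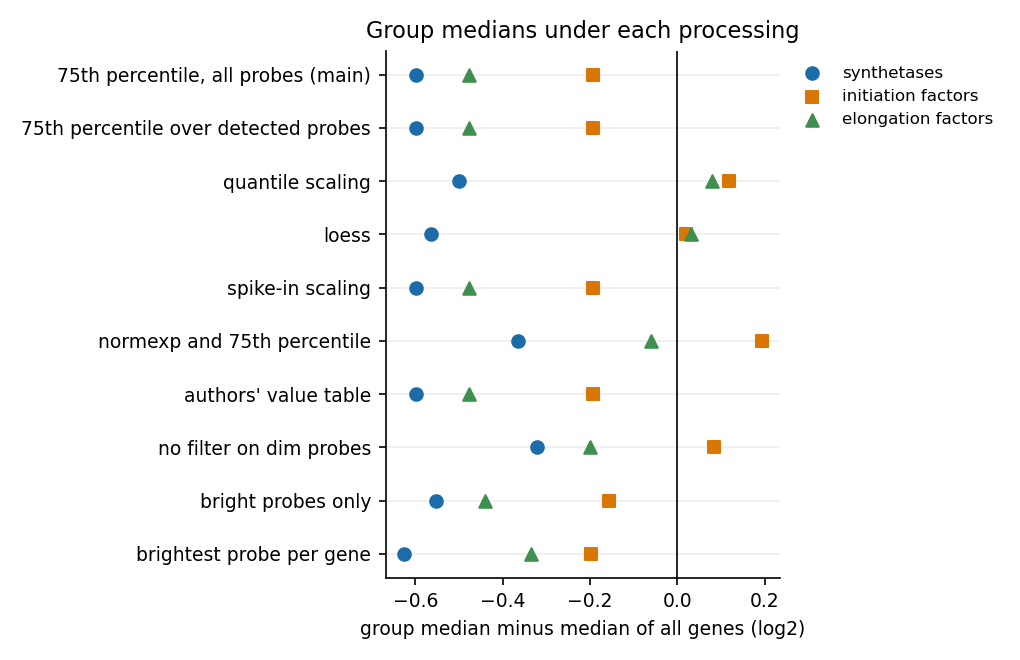
Median difference of the synthetases, initiation factors and elongation factors minus the median of all genes (log2, horizontal axis) under the main and 9 alternative processings, of which 3 equal the main one by construction. The synthetases stay between -0.63 and -0.32, while the initiation and elongation factors cross 0 under some settings.

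Genes of the amino acid response, which share ATF4 as a regulator with many synthetases, had a median of -1.01, or -0.74 with the brightest probe per gene. A fall of 2-fold or more was seen in 11 of the 22 with a value, against 17.3% of all genes, and 1 was at least 2-fold higher, against 12.8%. The count of 11 became 7 in the authors' table, 5 with normexp and 0 with spike-in scaling. In these settings 8.26%, 8.81% and 0.885% of all genes were at least 2-fold lower. The lowest were the mitochondrial serine hydroxymethyltransferase Shmt2, with 3.39 on WT and 0.73 on Nrdc-cKO (-2.66), asparagine synthetase Asns, with 6.59 and 4.17 (-2.42, probes at -2.46 and -2.37), and Phgdh, the first enzyme of serine synthesis, with 7.78 and 5.89 (-1.89). Of the 22, 5 stood above 0, and these were chosen for naming after their values were seen. The message of Atf4 itself read 5.64 on WT and 5.97 on Nrdc-cKO (0.33), and Ddit3, a stress-induced transcription factor, read -0.26 and 1.16 (1.42). Trib3, a target of both, stood at 0.22, Cebpb at 0.70 and Vldlr at 0.13. Message levels do not show how much ATF4 protein was made. The mTORC1 pathway, which drives initiation through 4E-BP and S6 kinase, had a median of -0.59 with 2 of 11 at least 2-fold lower (18.2%, near the 17.3% of all genes) and 0 higher. These were the inhibitor Deptor (-1.27) and the kinase Rps6kb1 (-1.07, with probes at -1.37 and -0.77). Larp1, which binds messages of the translation machinery, stood at -0.91.

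**Figure D5:**
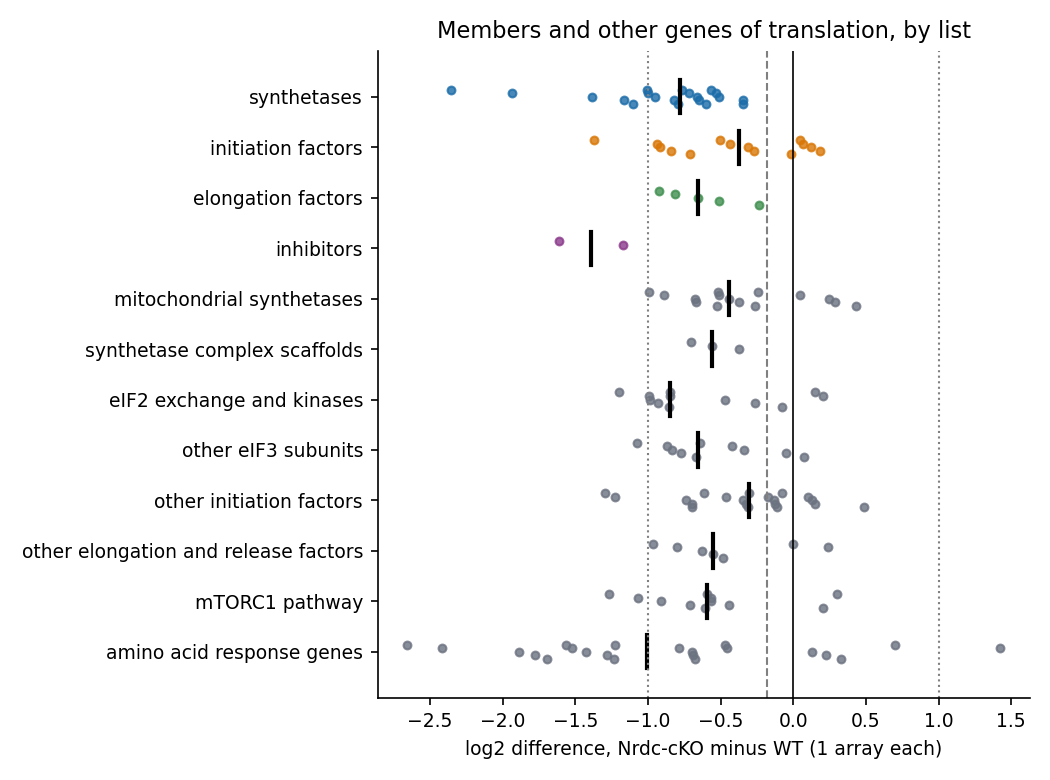
Log2 difference (Nrdc-cKO minus WT, horizontal axis) of each measured gene in the member groups (coloured) and in the other lists (grey), with black bars for medians. The dashed line is the median of all genes and dotted lines mark 2-fold. The amino acid response genes have a median of -1.01. In this main setting the mitochondrial synthetases sit closer to 0 (-0.44) than the cytosolic synthetases (-0.78). With bright probes only the medians are closer (-0.66 and -0.77).

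Markers of several cell types moved beside these results. For scale, 17.3% of all genes were at least 2-fold lower and 12.8% at least 2-fold higher. All 8 acinar markers were at least 2-fold lower, with a median of -2.02, and their summed signal, in multiples of each array's 75th percentile, was 21800 on WT and 5270 on Nrdc-cKO. The same sum was 371 and 178 for the synthetases. All 8 islet markers were at least 2-fold higher (summed 379 and 2920), as were 6 of 6 fibroblast markers (204 and 768) and 4 of 5 macrophage markers (12.1 and 35.5). Of 5 adipocyte markers, 1 was measured on both arrays and was higher, and 4 were detected on Nrdc-cKO only (summed 6.75 and 332). Of 5 duct markers 1 was higher, Spp1 at 2.88, and 1 lower, Cftr at -1.59, and the summed signal (31.1 and 175) follows Spp1. Of 3 endothelial markers 0 passed 2-fold (4.32 and 6.34). Of 4 T cell markers 1 of 2 measured was lower and 2 were detected on Nrdc-cKO only (12 and 9.44), and of 4 B cell markers 1 was measured, within 2-fold, and 3 were detected on Nrdc-cKO only (0.496 and 5.84). The labelled tissue showed its defining acinar and islet markers on both arrays. The part of these cell types in the values of the translation genes was not tested.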

How the data were processed

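Total RNA of 1 WT and 1 Nrdc-cKO pancreas sample was read as Cy3-labelled cRNA on 1 Agilent array each. The deposited scanner files hold processed intensities on a linear scale, corrected for background and spatial trend and not normalized between arrays, per the file headers. The deposited flags for outliers, saturation and signal above background were used as well; 0 spots were saturated. The file headers name Agilent Feature Extraction 12.0.3.1, whereas the submitters' processing notes name version 11.5.1.1. A value table deposited by the authors holds those intensities times 4.37 (WT) and 1.92 (Nrdc-cKO), linear and not centred, with medians of 42.5 and 66.0; the sources used here do not state how these factors were chosen.

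Outlier spots were left out (80 and 74), log2 signals of repeat spots were averaged, and each array's 75th percentile over 56604 probes was subtracted, with no pseudocount. A probe counted as detected if a share of 0.5 or more of its spots carried the flag for signal well above background. A gene's value is the mean over probes detected on both arrays. A gene detected on 1 array only was set against the lowest detected signal of the other array, or its own signal there if higher, and is written as at least N-fold. Of 35885 probes with a RefSeq accession, 32993 were named through a GRCm38.p6 gene table, in which Nrdc and Mars have other symbols. Coordinates are given only for the promoter stretches, on GRCm38.p6, and not for probes, since the array design refers to another build.

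With 1 array per group no test was made. Scaling, background correction, probe filters, probe summary and the fold threshold were varied with limma 3.58.1 in R 4.3.3 and Python 3.11.15. Normexp used the deposited median spot and background intensities. Some genes are not reported here and were left out of the lists. The script was tested on simulated data. The members and lists were chosen with earlier results of these data known. Named were all members, Nrdc and the 3 largest differences of each further list, besides genes marked as chosen after their values were seen.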

Additional observations from a re-analysis of the deposited data

How the results depend on the processing

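No paired analysis was possible because there was only 1 array for WT and 1 for Nrdc-cKO, and no replicate could be left out. A value is said to move when it shifts by more than 0.18, the median SD between probes of a gene. Medians of synthetases, initiation and elongation factors moved to -0.57, 0.051 and 0.013 with quantile scaling, -0.48, 0.10 and 0.11 with loess, -0.43, 0.13 and -0.12 with normexp, -0.28, 0.12 and -0.16 in the authors' table, and 1.12, 1.52 and 1.24 with spike-in scaling, where 27 members were at least 2-fold higher. The gap between synthetases and initiation factors moved only with quantile scaling, to -0.62. In the main setting 7 of 20 synthetases were past 2-fold lower, against 17.3% of all genes. The count became 4 with the 75th percentile over detected probes and 4 with quantile scaling, against 13.4% and 14.8%. It became 3 with loess (10.7% of all genes), 2 with normexp (8.81%), 2 in the authors' table (8.26%) and 0 with spike-in scaling (0.885%). The counts of 2 of 20 are near the share of all genes. The 1 initiation factor became 0 with loess, quantile, normexp, spike-in scaling or the authors' table. At 1.5-fold lower the counts were 15 of 20 synthetases, 5 of 14 initiation factors and 3 of 5 elongation factors, against 31.3% of all genes. The share of initiation factors is near that of all genes. A looser threshold can only raise the counts, by construction. Leaving dim probes in, bright probes only and the brightest probe per gene moved no median of these groups beyond 0.18. The counts at 2-fold stayed at 7 and 1 except for 6 of 19 measured synthetases with bright probes only. In these settings 35.0%, 16.3% and 17.7% of all genes were at least 2-fold lower. With dim probes left in, 7 of 20 synthetases (35.0%) is therefore no more than the share of all genes. Of the mitochondrial synthetases, 0 passed 2-fold in the main setting. With the brightest probe per gene 2 of 15 passed, against 17.7% of all genes. With bright probes only 1 of 7 passed, against 16.3%, and their median moved from -0.44 to -0.66. Both counts are near the share of all genes and do not set these synthetases apart.

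With spike-in scaling, which adds 1.90 to every gene, every value below 0 by less than that turned sign by construction, and 2 of 41 members remained below 0. Among named genes that had been past 2-fold lower this gave Dars (0.89), Gars (0.88), Hars (0.80), Kars (0.73), Vars (0.51), Eif3a (0.53), Eif4ebp1 (0.28), Eef2k (0.72), Eif2b1 (0.70), Eif3j1 (0.82), Pabpc4 (0.60), Eif5b (0.67), Phgdh (0.0095), Deptor (0.62), Rps6kb1 (0.83) and, for the amino acid response genes, a median of 0.89. Over all genes the share at least 2-fold lower was 17.3% in the main setting, 8.26% in the authors' table and 0.885% with spike-in scaling, against 12.8%, 22.2% and 79.8% higher. The cause of other shifts was not tested. Signal over background limits Mars2 and Eef1a2, which have no value.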

Other observations

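Wars is known as a gene that interferon gamma induces in many cells, yet it was the lowest synthetase here while interferon-induced genes chosen after their values were seen were higher on the same array. Irf7 read 2.30 on WT and 4.82 on Nrdc-cKO (2.52), Gbp2 -0.28 and 1.68 (1.96) and Irf1 2.14 and 3.67 (1.52), each from 1 probe. These values come from whole tissue and are given without an explanation.

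Gars and Kars are known to serve both the cytosol and the mitochondrion, and each was read by 1 probe. In the main setting they stood at -1.01 and -1.17, below the cytosolic median of -0.78 and the mitochondrial median of -0.44. For Gars this depended on the processing. It stood at -0.33 with quantile scaling and -0.34 with loess, above the cytosolic medians of -0.57 and -0.48 there. Kars stayed below those medians, at -0.80 and -0.74.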
